A study of Mus musculus with 6 samples.

Results

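The neurons of the cerebral cortex are stacked in layers, and each layer is recognised by genes that its neurons express. The RNA of 9 such cortical layer identity genes was followed in the post-stroke mouse cortex. The genes were taken by name and not by a cutoff on measured values, but earlier results of these data were known at the time. All 9 had a value among the 15441 genes listed in at least 1 library. Of the 9 genes, 4 mark upper layers and 5 mark deep layers.

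The upper layers (2 to 4) hold neurons that mostly connect one cortical area with another and, in layer 4, receive input from the thalamus. Cux1 and Cux2 are homeodomain transcription factors of upper layer neurons, Rasgrf2 encodes a guanine nucleotide exchange factor used as a marker of layers 2 and 3, and Rorb encodes a nuclear receptor of layer 4. The deep layers (5 and 6) send axons out of the cortex. Fezf2 and Bcl11b (also called Ctip2) are zinc finger transcription factors that specify the subcortical projection neurons of layer 5, and Etv1 (also called Er81) is an ETS factor of layer 5. Tbr1 is a T-box factor of layer 6, and Foxp2 is a forkhead factor of the corticothalamic neurons of layer 6.

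All libraries came from male C57/BL6J mice of 6 to 8 weeks of age. Stroke was made by photothrombosis, in which the dye Rose Bengal is injected and light shone through the intact skull over the sensorimotor cortex clots the vessels beneath it. The sham-operated mice had the operation without the light, were taken at day 7 after it and served as the control for every time point, and stroke mice were taken 1, 3, 7, 14 and 28 days post-stroke. The RNA of the whole ipsilateral cortex of 3 mice was pooled into 1 library per group, so the 6 libraries carry no replicate error, no difference below was tested, and each is a difference between 2 libraries. All 5 comparisons use the same control library.

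Levels are in FPKM, in which fragments are counted relative to transcript length and to the number of mapped fragments, so it is a scale per length. The tables list the FPKM of transcript starts, transcript ends and splicing events, and leave out events at 0. The value of a gene in a library was the largest of its summed starts, its summed ends and its largest single event. The log2 ratio was that of FPKM plus 0.1 over control FPKM plus 0.1, for genes that reached 1 FPKM in either library, and a gene was counted as lower or higher when this ratio was at least 1 in size. The average depth was stated as 33.6 M reads of 150 bases per sample, and the depth of each library is unknown. Fewer neurons of a layer and less RNA per neuron cannot be told apart in these pooled samples.

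Some facts of the libraries touch the layer genes. Cortical projection neurons were present in all of them, with Slc17a7, the vesicular glutamate transporter of these neurons, at 163.8 to 303.2 FPKM. Markers of striatal projection neurons were present as well: Ppp1r1b, which encodes DARPP-32, was at 134.2 to 288.4 FPKM and Penk, which encodes proenkephalin, at 119.5 to 205.1 FPKM. The hypothalamic hormone gene Avp was not listed in the control library and was at 3.01 to 18.9 FPKM in the 5 stroke libraries. The library of day 14 stood apart. Genes with an end sum of at least 1 FPKM had a start sum under 50% of it in 19.0% of cases there, in 10.8% at day 1 and in 7.39% to 8.96% of cases in the other libraries.

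Over the 5 days, the upper layer genes were below control in 19 of 20 ratios and the deep layer genes in 12 of 24. The 5 ratios of a gene share 1 control value, so these ratios are not independent and the counts are not replicates. Cux1 is among the upper layer genes, although its value was mainly that of CASP, another product of the locus described below. From day 1 to day 28, the median log2 ratio of the 4 upper layer genes was -0.29, -0.22, -0.54, -0.57 and -0.22. The median of the deep layer genes was 0.11, -0.04, -0.13, -0.04 (4 of 5 genes) and 0.28. By these gene values, the deep layer median was above that of the upper layer at each day, by 0.40, 0.18, 0.41, 0.53 and 0.50 on the log2 scale. The ranges of the 2 groups overlapped at all 5 days. The medians of all genes compared were 0.01, 0.03, 0.03, 0.10 and 0.03, and the 10th percentile of all genes was between -0.64 and -0.42. Of the group medians, that of the upper layer at day 7 lay under this percentile. Rasgrf2 lay under it at each day, Cux2 at day 7 and 14, and Rorb and Bcl11b at day 7. Some of these were close to the percentile, which was -0.452 at day 3 and -0.422 at day 7. Rasgrf2 was at -0.455 and -0.431 on these days, and Bcl11b at -0.441 at day 7. By the 3′ end of the full gene alone, Rasgrf2 was at -0.485 at day 3 and at -0.385 at day 7, the latter above the percentile. The longest transcripts of the upper layer genes have 5797 to 12862 bases and those of the deep layer genes 2429 to 8111, and across genes, which are not independent replicates, longer transcripts had lower ratios at day 1 (Spearman rho -0.255, 11527 genes) and day 14 (rho -0.404, 11541 genes). Corrected for this trend, the upper layer median was 0.0 at day 1 and -0.32 at day 14, and the difference between the groups was 0.15 and 0.53. For Cux1 the correction took the length of 12862 bases, whereas CASP transcripts have 2195 to 2831 bases. It moved Cux1 from -0.155 to 0.137 at day 1, so the median of 0.0 rests in part on a length that most of the Cux1 value does not have. The difference between the groups was smaller under other settings, at 0.021 for day 1 with start sums alone and at 0.096 for day 14 with end sums alone, without Cux2 or without Rasgrf2. At day 3 it was -0.007 with end sums alone. The deep layer medians at day 3 and 7 include a Foxp2 ratio of summed starts to 1 exon in control, as described below. Taken by that exon in both libraries (2.25 FPKM in control, 1.81 at day 3), Foxp2 would lie below Tbr1, at -0.275. The deep layer median at day 3 would then be that of Tbr1, under the upper layer median of -0.22. At day 7 it would stay at -0.13. Without Cux1 the upper layer median at day 14 was -1.01.

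**Figure D1:**
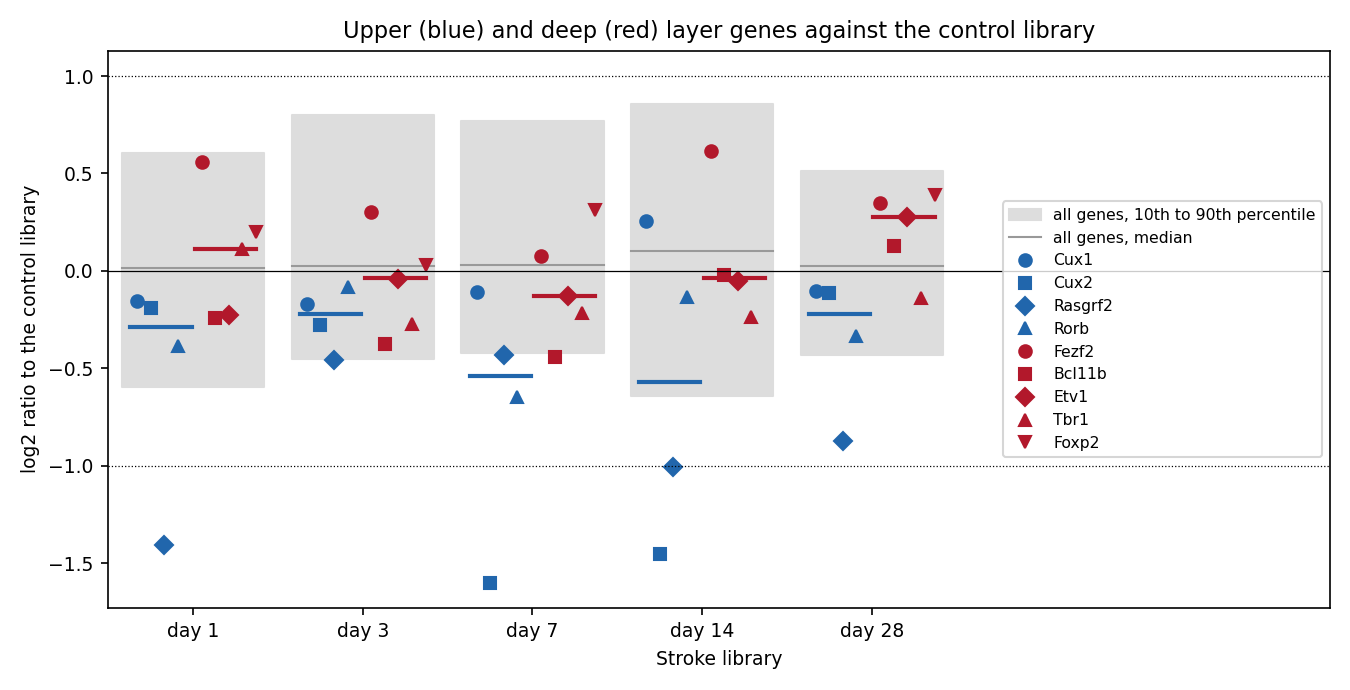
The log2 ratio of each layer gene to the control library at the 5 days, with upper layer genes in blue and deep layer genes in red, thick bars at the median of each group, grey boxes from the 10th to the 90th percentile of all genes and dotted lines at a ratio of 1 in size. Cux2 at day 7 and 14 and Rasgrf2 at day 1 and 14 are past the lower line, no layer gene is past the upper line, and Foxp2 has no point at day 14 because it was not listed there.

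The genes past the threshold were few. At day 1, 1 of 9 was lower (Rasgrf2), beside 4.48% of all genes compared, and none was higher, beside 5.11%. At day 3 none was lower or higher, beside 2.53% and 8.54% of all genes. At day 7, 1 of 9 was lower (Cux2), beside 2.12%, and none was higher, beside 8.53%. At day 14, 3 of 9 were lower (Cux2, Rasgrf2 and Foxp2, the last because it was not listed), beside 6.92%, and none was higher, beside 8.97%. Counting genes listed in both libraries alone, 2 of 8 were lower at day 14, beside 4.66% of such genes. At day 28 none was lower or higher, beside 2.79% and 3.68%. With 9 genes, 1 gene is already a larger share than any of these backgrounds.

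The layer genes differed in level. In the control library Rasgrf2 was at 22.5 FPKM, Tbr1 at 17.1, Cux1 at 15.5, Cux2 at 15.3, Etv1 at 9.33, Bcl11b at 8.68, Fezf2 at 5.82, Rorb at 3.50 and Foxp2 at 2.25 FPKM. Without replicate libraries, neighbours in this order such as Cux1 and Cux2 cannot be ranked. The highest library was 3.07 times the lowest for Cux2 and 2.67 times for Rasgrf2, and between 1.31 times (Tbr1) and 1.59 times (Rorb) for the other genes in the libraries that listed them.

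**Figure D2:**
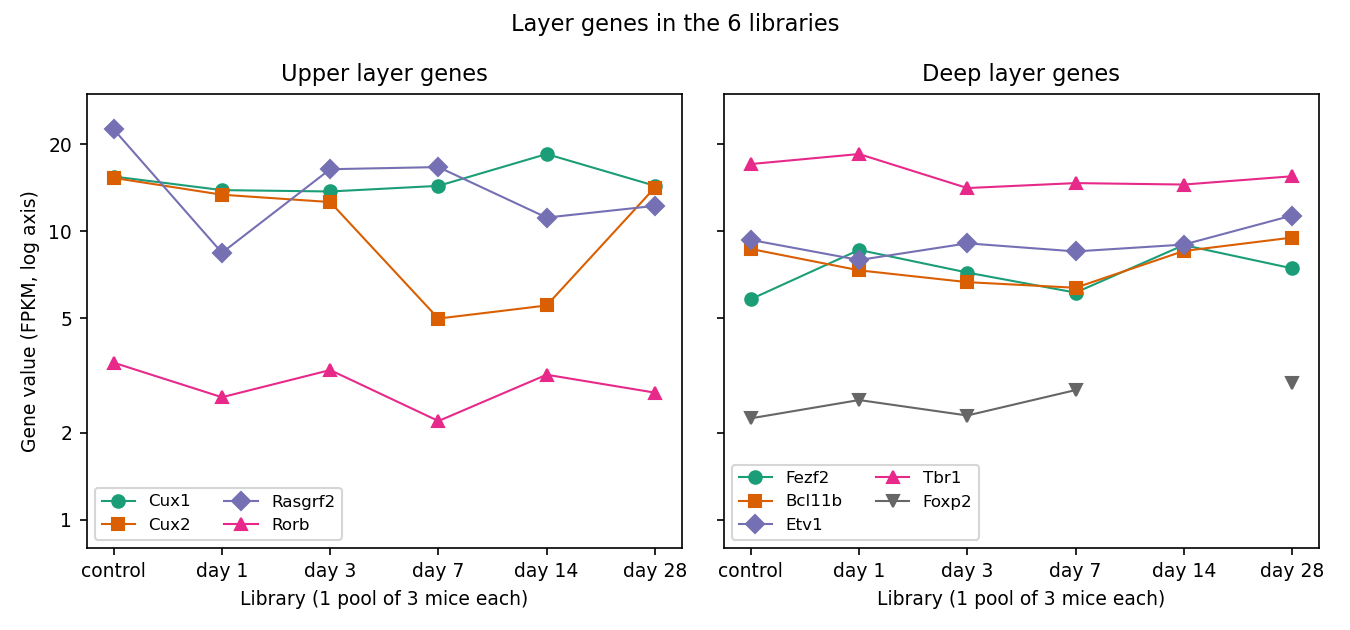
The gene value in FPKM, on a log axis, of the 4 upper layer genes (left) and the 5 deep layer genes (right) in the 6 libraries, each a pool of 3 mice and drawn as 1 point. Cux2 is low at day 7 and 14 and Rasgrf2 at day 1, the highest value of each deep layer gene is 1.31 to 1.54 times its lowest, and Foxp2 has no point at day 14.

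Cux2 lies at chr5:121856366-122050102 on the minus strand (GRCm38) and encodes a homeodomain factor of 1426 amino acid codons. Its level was 15.3 FPKM in control and 13.4, 12.6, 4.98, 5.53 and 14.2 FPKM from day 1 to day 28. The libraries of day 7 and day 14 were low, at 32.6% and 36.2% of control, and the other 3 stroke libraries were at 82.5% to 92.6%. The log2 ratio was -1.60 at day 7 and -1.45 at day 14, and -0.11 at day 28. No transcript end of Cux2 was listed in any library. The inclusion of 1 exon (chr5:121885838-121885958), held by all 3 transcripts that encode the 1426 codons and listed in all 6 libraries, had 15.2, 13.3, 10.5, 4.88, 5.53 and 12.9 FPKM from control to day 28, with the same 2 libraries low.

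The Cux2 value was spread over several transcript starts, and the starts did not move together. The start of Cux2-201 (first base 122047825) was at 6.22 FPKM in control and then at 6.56 (day 1) and 0.263 FPKM (day 3), and it was missing from the libraries of day 7, 14 and 28. The start of Cux2-202 (first base 122049851), which encodes the same number of codons, was listed in all libraries, at 3.87, 3.66, 2.30, 0.694, 0.908 and 3.18 FPKM. It was low at day 7 and 14 and near control at day 28. The start of Cux2-210 (first base 121924921), which again encodes 1426 codons, was at 6.76 FPKM at day 3 and 6.58 at day 28 and between 0.0361 and 0.140 FPKM in the other libraries. The start of Cux2-207 (first base 122050102), annotated as a transcript of 147 codons, was at 0.312 FPKM in control, was not listed at day 1 and had 1.16, 1.58, 4.48 and 4.25 FPKM in the libraries of day 3, 7, 14 and 28. It made up 81.0% of the summed starts at day 14. Exons beyond the annotated end of Cux2-207 (121884754), at chr5:121869008-121869780 and chr5:121873050-121873151, were at 5.53 FPKM in that library, the whole gene value. The RNA from this start was thus not limited to the short transcript there. The Cux2-210 start made up 53.5% of the summed starts at day 3 and 46.5% at day 28, whereas the Cux2-201 start made up 40.6% in control and 49.0% at day 1. The gene value near control at day 28 was therefore assigned in part to other starts than in control, with the Cux2-202 start at 25.3% of the summed starts in control and 22.4% at day 28.

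The sequences upstream of the Cux2-201 and Cux2-202 starts are shown because these starts were assigned differently across the libraries. They come from the RefSeq promoter set on GRCm38.p6, which held 8 of the 9 layer genes, are written 5′ to 3′ on the minus strand, leave out bases that lie in an annotated Cux2 exon, and have CpG pairs in capitals. The first is chr5:122047892-122048075, whose last base lies 66 bases before the start, and the second is chr5:122049852-122050015, which reaches the start.
Cux2-201: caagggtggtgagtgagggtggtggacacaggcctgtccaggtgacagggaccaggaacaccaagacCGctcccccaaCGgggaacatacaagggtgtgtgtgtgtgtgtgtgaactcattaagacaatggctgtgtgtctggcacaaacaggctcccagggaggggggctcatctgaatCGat
Cux2-202: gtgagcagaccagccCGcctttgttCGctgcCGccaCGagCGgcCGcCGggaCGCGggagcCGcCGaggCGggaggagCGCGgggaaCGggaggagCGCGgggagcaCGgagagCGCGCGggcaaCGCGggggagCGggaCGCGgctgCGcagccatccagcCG

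The 2 windows differ in composition. The Cux2-201 window of 184 bases has a GC content of 57.1% and 3 CpG pairs, where the same window in 32851 RefSeq promoters has medians of 51.1% and 4. The Cux2-202 window of 164 bases has a GC content of 78.7% and 28 CpG pairs, against medians of 53.7% and 4. Of 4 promoter motifs searched on both strands, neither window held any. The TATA box letters TATAAA occur in 8.52% (first window) and 8.2% (second window) of all promoters, and the letters CCAAT of the box of that name in 25.7% and 26.0%. The letters GGGCGG of a GC box occur in 21.7% and 29.4%, and TGACG, the first letters of a cAMP response element, in 11.0% and 14.1%. This absence says only that these letters are not in these windows.

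Cux1 lies at chr5:136248135-136567490 on the minus strand. The locus encodes a homeodomain factor and, through other 3′ exons, CASP, a Golgi membrane protein without a homeodomain. The gene value was 15.5 FPKM in control and 13.9, 13.7, 14.4, 18.5 and 14.4 FPKM from day 1 to day 28, or 88.7% to 120.0% of control. No library was far from the others, and day 14 was the highest.

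The exons tell the forms apart, and one of each is shown because the Cux1 value rests on which form it counts. Both come from GENCODE transcripts of GRCm38 and are written 5′ to 3′ on the minus strand. The first is the exon chr5:136256232-136256344 of 113 bases, found in the 3 transcripts of the CASP form and in none of the 5 transcripts of over 1000 codons that encode the homeodomain form. The second is the last 113 bases, chr5:136312643-136312755, of an exon of 672 bases, which all 5 homeodomain transcripts hold and no CASP transcript does.
CASP form: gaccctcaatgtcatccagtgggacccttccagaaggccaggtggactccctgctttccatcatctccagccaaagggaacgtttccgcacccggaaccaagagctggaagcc
Homeodomain form: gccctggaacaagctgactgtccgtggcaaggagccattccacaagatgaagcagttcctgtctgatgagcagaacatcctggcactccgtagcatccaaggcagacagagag

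The CASP exon carried 13.4, 13.9, 13.7, 13.3, 18.5 and 13.6 FPKM from control to day 28, which was 86.9% of the gene value in control and 92.6% or more of it in each stroke library. The homeodomain exon was at 2.02 FPKM in control. After stroke it had 0.0417 FPKM on day 3, 1.07 FPKM on day 7 and 0.868 FPKM on day 28, and the libraries of day 1 and day 14 did not list it. It made up 13.1% of the gene value in control and 7.46% or less in each stroke library that listed it. A start at first base 136566651, which is the annotated start of no transcript and whose exon overlaps 2 of the 5 homeodomain transcripts and no CASP transcript, was at 3.39 FPKM in control and 0.0360, 0.109 and 1.47 FPKM in the libraries of day 3, 7 and 28, and missing from the same 2 libraries. The homeodomain exon was thus highest in control, and the Cux1 gene value used as an upper layer level was mainly that of CASP. The longest homeodomain transcript is 12862 bases long, and both libraries that did not list the form, day 1 and day 14, are those with the largest share of genes with weak starts. Day 3, with the homeodomain exon at 0.0417 FPKM, had the smallest such share, at 7.39%. The part of transcript length in these values was not tested.

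**Figure D3:**
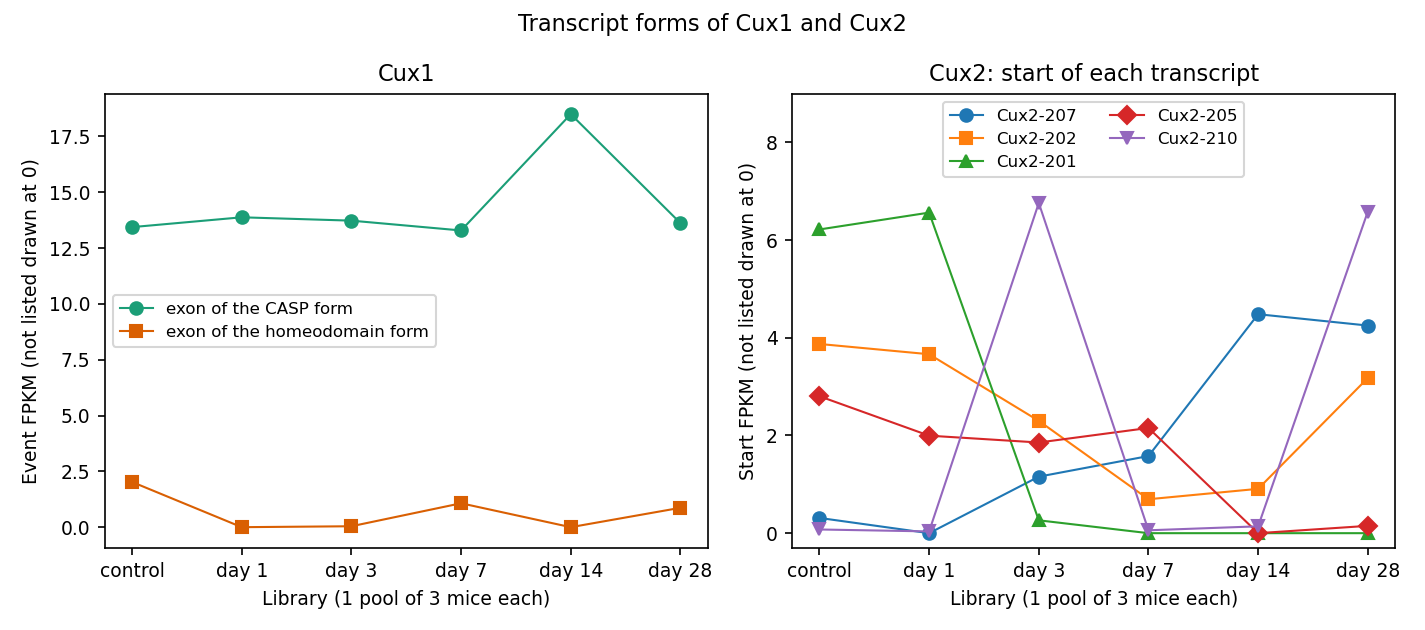
Left, FPKM of the CASP exon and of the homeodomain exon of Cux1 in the 6 libraries; right, FPKM of the 5 Cux2 starts listed in at least 3 libraries, with events that were not listed drawn at 0. The CASP exon stays at 13.3 to 18.5 FPKM while the homeodomain exon is at most 2.02 FPKM, and different Cux2 starts lead in control and at day 28.

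Rasgrf2 (chr13:91880400-92131656, minus strand) was at 22.5 FPKM in control and 8.42, 16.4, 16.7, 11.15 and 12.2 FPKM from day 1 to day 28. All 5 stroke libraries were below control, with day 1 the lowest at 37.4% of control and day 14 and day 28 at 49.5% and 54.4%. In these 3 libraries the log2 ratio was -1.41, -1.01 and -0.87. These values came from the summed ends. The 3′ end of the full gene alone (chr13:91880400-91884524) was at 18.2, 8.42, 13.0, 13.9, 11.15 and 12.15 FPKM, and its log2 ratio was -1.10 on day 1 and -0.70 on day 14, so that the day 14 call rests on a shorter form. That form, which ends at chr13:92022049-92022611, had 4.30 FPKM in control and 3.41 and 2.75 FPKM in the libraries of day 3 and 7, and the other 3 libraries did not list it.

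The start of Rasgrf2 was lower still in 2 libraries. It was at 10.3 FPKM in control and 2.34, 7.72, 8.63, 0.406 and 5.71 FPKM from day 1 to day 28. As a share of the summed ends this was 45.8% in control and 46.6% to 51.7% at day 3, 7 and 28, but 27.8% at day 1 and 3.64% at day 14. Among genes with transcripts over 5000 bases, the share with a start sum under 50% of the end sum was 40.6% at day 14 and 19.9% at day 1, and 10.5% to 13.8% in the other libraries. The part of this loss of starts in the Rasgrf2 values was not tested. Corrected for the trend of the ratio on transcript length, the log2 ratio of Rasgrf2 was -1.28 at day 1 and -0.82 at day 14, and that of Cux2 was -1.56 at day 7 and -1.13 at day 14. Among genes of like transcript length, 4.15% (day 1) and 8.13% (day 14) were lower for the length of Rasgrf2, and 2.88% (day 7) and 15.9% (day 14) for that of Cux2.

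**Figure D4:**
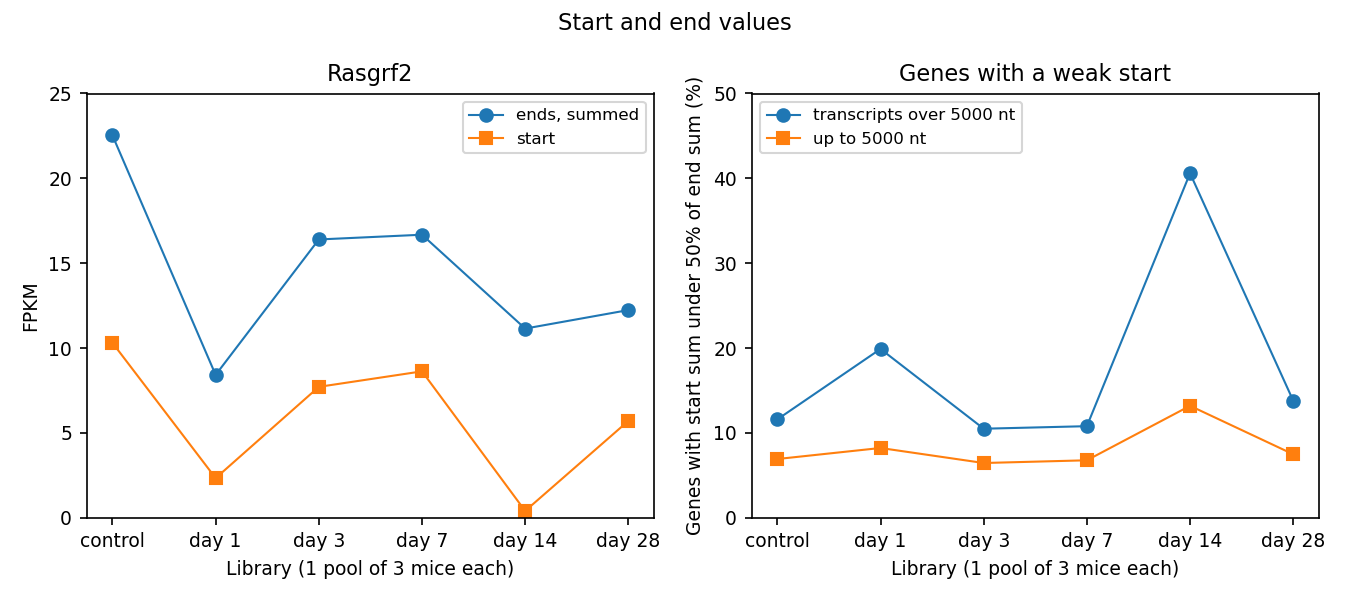
Left, FPKM of the summed ends and of the start of Rasgrf2 in the 6 libraries; right, percent of genes whose start sum is under 50% of their end sum, for genes with a longest transcript over 5000 bases and for the others. The Rasgrf2 start is at 0.406 FPKM at day 14, the library in which 40.6% of the long genes had a weak start.

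Rorb (chr19:18930605-19111196, minus strand) was at 3.50 FPKM in control and 2.66, 3.30, 2.20, 3.18 and 2.76 FPKM from day 1 to day 28. All stroke libraries were below control and day 7 was the lowest, with a log2 ratio of -0.65. The start of Rorb-203 (first base 19111196) was listed in control and at day 3, 7 and 28 and not at day 1 and day 14, where the value came from the 3′ end. A second start (first base 19001117), which belongs to transcripts encoding another first part of the receptor, was listed at day 3 alone, at 0.536 FPKM.

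In layer 5, Fezf2 (chr14:12342094-12348189, minus strand) was at 5.82 FPKM in control and 8.615, 7.19, 6.13, 8.95 and 7.44 FPKM from day 1 to day 28. Every stroke library was above control, with log2 ratios from 0.07 at day 7 to 0.61 at day 14, and none reached the threshold. Its longest transcript is the shortest of the 9, at 2429 bases, and corrected for length its ratio was 0.45 at day 1 and 0.40 at day 14. The summed starts of Fezf2 were at 1.37 FPKM in control and from 2.44 to 8.95 FPKM after stroke, or 23.6% of the summed ends in control and all of them at day 14, so that log2 ratios from starts alone would be larger, at 2.06, 1.96 and 2.62 for day 3, 7 and 14.

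Bcl11b (chr12:107910403-108003602, minus strand) was at 8.68 FPKM in control and 7.32, 6.66, 6.37, 8.54 and 9.504 FPKM from day 1 to day 28. Days 1 to 7 were below control, with the lowest log2 ratio of -0.44 at day 7, and day 28 was above it at 0.13. Its start and end values were equal in each library. Striatal projection neurons also express Bcl11b and Foxp2. The summed FPKM of the 7 of 10 striatal markers that were listed was 1.16, 0.89, 0.908, 1.33 and 1.31 times control from day 1 to day 28. Ppp1r1b carries much of this sum, at 217.1 FPKM in control and 151.9 and 134.2 FPKM at day 3 and 7. The median log2 ratio of the 7 genes was 0.03, 0.001, 0.02, 0.45 and 0.29, with 3, 3, 2, 1 and 1 of them below control. The part of striatal tissue in the Bcl11b and Foxp2 values was not tested.

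Etv1 (chr12:38779380-38870484, plus strand) was at 9.33 FPKM in control and 7.95, 9.08, 8.51, 8.99 and 11.3 FPKM from day 1 to day 28. Its log2 ratio was between -0.23 and 0.28. The start at first base 38779893 was at 4.66 FPKM in control and 2.10, 1.83, 1.34, 1.19 and 3.95 FPKM from day 1 to day 28, while a start near the 3′ end (first base 38860851) was at 1.44, 1.36, 2.69, 2.07, 4.003 and 3.37 FPKM. The first start was below control in all stroke libraries and the second above control in 4 of 5, while the gene value differed by 1.43 times between its highest and lowest library.

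In layer 6, Tbr1 (chr2:61802930-61814114, plus strand) was at 17.1 FPKM in control and 18.5, 14.1, 14.7, 14.5 and 15.5 FPKM from day 1 to day 28. Its log2 ratio was 0.11 at day 1 and between -0.28 and -0.14 later. The start of Tbr1-201, which encodes the full protein of 681 codons, was at 2.97 FPKM in control and at 13.9 to 16.0 FPKM in the 5 stroke libraries. In control the larger start was at first base 61802930, where the annotation has a noncoding transcript (Tbr1-204), at 13.6 FPKM and 79.6% of the summed starts. It was at 0.182 FPKM at day 3 and 0.0336 at day 7 and not listed in the other stroke libraries. The end of Tbr1 did not share this difference, at 17.1 FPKM in control and 13.9 to 18.5 FPKM after stroke.

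Foxp2 (chr6:14901349-15441977, plus strand) was at 2.25 FPKM in control, and had 2.60, 2.30, 2.82 and 2.97 FPKM in the libraries of day 1, 3, 7 and 28. By this gene value these 4 stroke libraries were above control, with log2 ratios of 0.20, 0.03, 0.31 and 0.39. At day 14 no event of Foxp2 was listed, and no ratio is given. The number of genes that were not listed in a library although the median of the others was at least 5 FPKM was 38 at day 14 and 2 to 7 in the other libraries. No end of Foxp2 was listed in any library, and 1 exon (chr6:15409741-15409942), at 1.81 to 2.97 FPKM in 5 libraries, gave the value at control, day 1 and day 28. At day 3 and 7 the value came from summed starts, so those ratios compare unlike events. The exon itself was at 2.25 FPKM in control and at 1.81 and 2.07 FPKM at day 3 and 7, which is below control.

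Other genes of the layers were taken as lists by their textbook role. Of 12 other upper layer genes, 10 had a value. Past the threshold, 2, 2, 1, 2 and 2 of them were lower and 1, 0, 0, 2 and 2 higher from day 1 to day 28, beside the shares of all genes given for the 9 layer genes. Pcdh20, a protocadherin listed in control alone at 6.87 FPKM, is 1 of the lower genes on each day, and both lower genes at day 14 (Unc5d and Pcdh20) were counted because that library did not list them. Unc5d, a netrin receptor of upper layer neurons, was at 5.25 FPKM in control and between 1.91 and 4.30 FPKM in 4 stroke libraries, and day 14 did not list it. Mdga1, a cell adhesion molecule of layers 2 and 3, was in the opposite direction, at 1.88 FPKM in control and 4.27 and 3.94 at day 14 and 28, as was Otof, which encodes otoferlin, at 1.196 FPKM in control and 3.66 and 2.94. The medians of the list were -0.34, -0.14, -0.11, -0.28 and -0.20 from day 1 to day 28, over the 9, 8, 8, 7 and 8 compared genes listed in both libraries. They leave out Pcdh20 on each day and Unc5d at day 14, which were counted as lower.

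Of 18 other deep layer genes, 16 had a value. At most 1 was lower on any day (Ntsr1 at day 1 and 28, Zfpm2 at day 14) and none was higher on any day. The shares of all genes beside these counts are those given for the 9 layer genes. Ntsr1 at day 28 and Zfpm2 at day 14 were counted because they were not listed there, and Ntsr1, a neurotensin receptor, went from 1.4 FPKM in control to 0.403 FPKM at day 1. The medians were -0.12, 0.01, -0.12, 0.04 and -0.21, over the 16, 16, 16, 15 and 15 genes listed in both libraries. These lists therefore gave a median that was lower for the upper than for the deep layer at day 1, 3 and 14. At day 7 and 28 the upper and deep medians were nearly equal, at -0.108 and -0.118 and at -0.205 and -0.206. They leave out Pcdh20 on both days and Ntsr1 at day 28, which were counted as lower, so these days give no clear order. Crym, which encodes a thyroid hormone binding protein, was above control at each day, at 37.9 FPKM in control and 44.6 to 64.0 FPKM after stroke. Nr4a2, a nuclear receptor of the deepest cortical neurons, was below control at each day, at 10.7 FPKM in control and 7.09 to 8.64 FPKM after stroke.

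Neuron markers without a layer were compared in the same way. Of the excitatory neuron genes listed in both libraries, 5 of 6, 6 of 6, 5 of 6, 3 of 5 and 5 of 6 were below control from day 1 to day 28. Of the 8 genes of all neurons, 6, 7, 8, 4 and 6 were below control, and of 7 inhibitory neuron genes 4, 6, 4, 3 and 2. The median log2 ratio of 6 of 8 excitatory neuron genes was -0.12, -0.35, -0.51, -0.02 and -0.37 from day 1 to day 28, and that of 8 of 10 genes of all neurons was -0.08, -0.42, -0.35, -0.15 and -0.19. Both medians were below that of the upper layer genes at day 3 and above it at day 14. The median of 7 of 8 inhibitory neuron genes was -0.04, -0.11, -0.06, 0.11 and 0.30. Microglial genes (7 of 8 with a value) had a median log2 ratio of 0.158, 1.368, 1.125, 1.752 and 0.251 over the 5 genes compared and listed in both libraries. Of these 5, 2, 0, 1, 1 and 2 were below control from day 1 to day 28, so not all of them went the other way. The summed FPKM of the list was 1.15, 2.88, 4.38, 3.46 and 1.16 times control. Of 7 astrocyte genes, Gfap, an intermediate filament, was higher at day 1, 3, 7 and 14 and no other passed the threshold, and the list medians were -0.06, 0.39, 0.15, -0.10 and -0.01. The part of the changed cell mixture in the layer gene ratios was not tested.

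**Figure D5:**
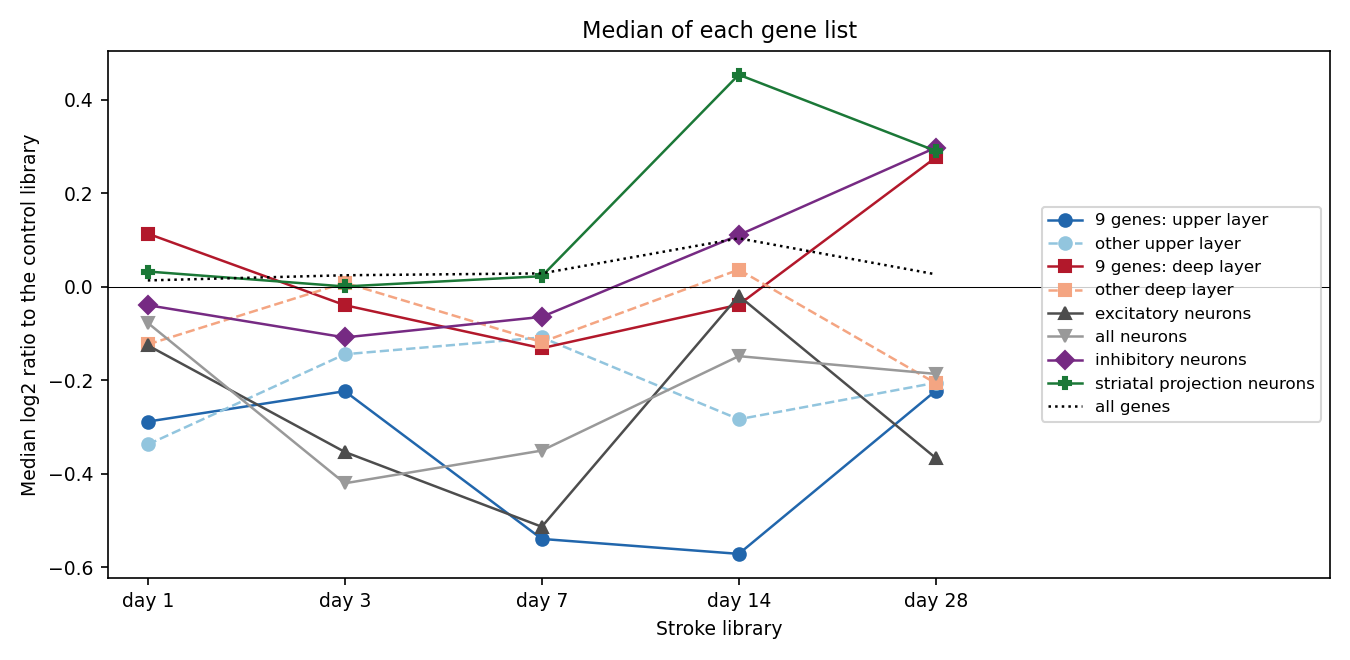
Median log2 ratio to the control library of each gene list at the 5 days, with the 4 upper and 5 deep layer genes as solid blue and red lines, the other layer genes as dashed lines, and neuron lists and all genes for comparison. The upper layer genes lie lowest at day 14, at -0.57, while the excitatory neuron list is at -0.51 at day 7 and -0.02 at day 14.

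The genes whose profile was most like the median of each group were sought among 10148 genes with at least 1 FPKM in all 6 libraries, by the mean absolute difference of the log2 ratio over the 5 days. For the upper layer median these were Opcml (0.045), Adss (0.061), Shank3 (0.066), Nat8l (0.067) and Ppm1l (0.072). For the deep layer median they were Dhx29 (0.037), Ccdc126 (0.043), Eml2 (0.044), Dynlt3 (0.046) and Rnf14 (0.048). Likeness over 5 ratios that share a control describes these libraries and no more.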

How the data were processed

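Poly(A)-selected, strand-specific libraries were sequenced from the ipsilateral cortex of control mice and of mice at 5 times post-stroke, with 1 library per group. The authors computed and deposited FPKM for each transcript start, end and splicing event on mm10 and left out events at 0. Per the labels, the processing notes name Trimmomatic 0.30, HISAT2 2.0.1 and HTSeq 0.6.1, and the tool that assembled transcripts and listed events is not given in the sources used here. Depth per library is unknown, so no interval or detection floor is given.

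From these FPKM a gene value was built per library (the largest of summed starts, summed ends and any single event), by Ensembl identifier, with Python 3.11.15, pandas 2.3.3 and numpy 2.4.6. A gene entered a comparison where it reached 1 FPKM in the control library, the stroke library or both, and its log2 ratio used a pseudocount of 0.1 and a threshold of 1. Genes that were not listed counted as 0 in counts and entered no ratio or median. Transcripts came from GENCODE M21, and the length correction used 20 bins of the longest transcript. With 1 library per group no test was run. The scripts were checked on simulated data. Alternatives were other gene values, pseudocounts, filters, scaling, threshold, length correction and leaving out genes.

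The genes named are the 9 layer genes, the fixed lists of other layer genes and cell markers, and the 5 genes nearest to each group's median profile. The values of 1 gene of the marker lists are not reported here. The layer genes and lists were chosen with earlier results of these data known.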

Additional observations from a re-analysis of the deposited data

How the results depend on the processing

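With 1 library per group, the values rest on single pools and no result has a replicate error. The deep layer median was above the upper layer median in 74 of 75 values from 15 alternative settings over 5 days, and the exception was day 3 with end sums alone, at -0.007, where Cux2 and Foxp2 have no end and the Cux1 end is a minor one. The smallest of the others were 0.021 at day 1 with start sums alone and 0.096 at day 14 with end sums alone, without Cux2 or without Rasgrf2 (the last 2 settings added after the data were seen). The count of 74 is no measure of robustness, because several settings could hardly change the difference. Median ratio scaling shifts both groups alike, and events inside the gene span gave the reported difference at each day. Taking genes that were not listed as 0 changed it at day 14 alone, to 0.518. No setting took Foxp2 by the same exon in both libraries, which would place the deep layer median at day 3 under that of the upper layer. Of 584 alternative ratios, medians and differences, 22 changed sign, and none of these was of the 34 whose reported value was past the threshold. Among the 22, Foxp2 at day 28 was at -0.57 with start sums alone, Cux1 with end sums alone was at 0.61 and 0.58 for day 1 and 3, and the deep layer median at day 1 was at -0.17 with start sums alone. With start sums alone, 3 layer genes were lower at day 1, 2 were higher at day 3 and at day 7 and 1 was higher at day 14, where the upper layer median was -1.45 and the difference 1.32. With the larger of start and end sums, 1 was higher at day 3 and at day 7. With end sums alone, 0 were lower at day 7 and 1 at day 14, and with 1 event listed in all libraries, a setting added after the data were seen, 1 was lower at day 14. With a 1.5-fold threshold, 2 were lower at day 7, 1 was higher at day 14 and 1 was lower at day 28. Without Cux1 the upper layer median at day 14 was -1.01. Corrected for transcript length, the upper layer median was 0.0 at day 1 and -0.32 at day 14, and the difference was 0.15 at day 1 and 0.53 at day 14. This correction gave Cux1 the length of its longest homeodomain transcript, although its value was mainly that of the shorter CASP form. Rasgrf2 at day 14 was at -0.95 with a pseudocount of 1, at -0.82 with the length correction and at -0.70 with its main end, and so past the threshold under none of these 3. The causes of these shifts were not tested, beyond the fewer genes and events that each setting holds.

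The counts over all genes depended on the filter. At day 14, 834 genes were lower and 1081 higher as reported, 1416 and 1822 with no filter, and 302 and 527 with at least 1 FPKM in both libraries. At day 1 these counts were 528 and 602, 1142 and 1307, and 212 and 290. At day 3 they were 305 and 1029, 743 and 1903, and 145 and 480. At day 7 they were 256 and 1030, 657 and 2003, and 127 and 468. At day 28 they were 328 and 432, 859 and 1114, and 126 and 180. No paired analysis was possible because each group has 1 library and the result comes from no test.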
